A study of Mus musculus with 4 samples.

Results

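The AP-1 subunits and a group of further immediate early genes were followed in mouse colonic organoids (colonoids) with and without butyrate. The rows of the count table were selected by symbol, which gave 10 genes of 36144: the Fos family (*Fos*, *Fosb*, *Fosl1* and *Fosl2*), the Jun family (*Jun*, *Junb* and *Jund*), and *Egr1*, *Ier2* and *Ier3*. All 10 were among the 13979 tested genes, those above 10 counts in 2 or more of the libraries. Bulk RNA-seq was carried out on 4 libraries, 1 per condition: untreated colonoids on day 2, colonoids given 2 mM sodium butyrate on day 2 (labelled 48 h), untreated colonoids on day 3, and colonoids given 2 mM sodium butyrate on day 3 (labelled 72 h). The labels describe the source of all 4 as the colon of a wild-type male mouse aged 24 weeks, at passage 3, whereas the methods of the study describe its organoids as coming from Hes1-GFP reporter mice, and the genotype enters no comparison here. All cultures were grown in Matrigel in a medium holding EGF, Noggin, R-spondin, CHIR99021 (a GSK3 inhibitor) and Y-27632 (a ROCK inhibitor), and all were released with the TrypLE dissociation reagent before lysis.

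Immediate early genes are transcribed within minutes of a signal without new protein synthesis, and many of their mRNAs are short-lived. The AP-1 transcription factor is a dimer of basic leucine zipper (bZIP) proteins. Fos proteins need a Jun partner to bind DNA, while Jun proteins can also pair with each other. Signals through MAP kinases reach these genes largely through serum response factor (SRF), its Elk cofactors and CREB. Butyrate is a product of bacterial fermentation in the colon that acts on the receptor FFAR2 and also inhibits histone deacetylases.

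With 1 library per condition there were no replicates, so no p-value or SE was computed and a difference compares libraries. The intervals given with each log2 fold change are exact 95% Clopper-Pearson intervals on the pair of counts and cover counting error only, and the spread between cultures is unknown. Totals ran from 20790225 counts (butyrate, day 3) to 24207840 (butyrate, day 2). Mitochondrial genes took 14.1% to 18.4% of them, and the 10 genes together took 0.0933% to 0.116%. Epithelial identity was checked with 10 markers, all of which were tested, and *Epcam*, an adhesion molecule of epithelia, had 25463 to 33929 counts per library. With butyrate, 5 of the 10 were higher and 5 lower on day 2 (median log2 fold change 0.02), and 1 was higher and 9 lower on day 3 (median -0.21). Among those lower on both days, *Cldn7*, a claudin of tight junctions, had log2 fold changes of -0.38 and -0.26 on days 2 and 3, and *Vil1*, a protein of the brush border, -0.23 and -0.28. Of 8 immune cell markers, 2 passed the filter, *Cd68* and *Itgam*, the latter at 36 to 48 counts. *Ptprc* had 5 to 15 counts. *Adgre1* was at 0 in every library, *C1qa* and *Cd3e* at no more than 3 counts, and *Csf1r* had 16 counts in the butyrate library of day 3 against 0 to 2 in the others. Of 11 stromal and endothelial markers, 3 passed, namely *Pdgfrb*, *Pecam1* (20 to 45 counts) and *Pdgfra* (9 to 13 counts), while *Col3a1* and *Lum* were at 0 everywhere. The immune sum was 188, 1231, 234 and 525 normalised counts in untreated day 2, butyrate day 2, untreated day 3 and butyrate day 3. *Cd68*, a lysosomal protein of macrophages that other cells can express, had 128, 1309, 172 and 420 counts and accounted for most of it, and without *Cd68* the sum was 57.3, 43.5, 64.2 and 71.3. The stromal sum was 137, 123, 181 and 110, with *Pdgfrb*, a receptor of pericytes and fibroblasts, at 80, 68, 105 and 55 counts. The part of other cells in the results was not tested.

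In the account of each gene, the values are read counts scaled by DESeq2 size factors (normalised counts), and they are given in the order untreated day 2, butyrate day 2, untreated day 3, butyrate day 3. In bulk samples, fewer cells expressing a gene and less RNA per cell cannot be told apart.

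*Fos* and *Fosb*, the genes with the widest changes among the AP-1 subunits, were lower with butyrate on day 2 and higher with butyrate on day 3. Their promoters are shown as a description of sequence, and no link between them and these differences was tested. The stretches are the 250 bases before the RefSeq gene start in GRCm38.p6, read 5′ to 3′ on the strand of the gene, and capitals mark TGACG, the shorter core of a cAMP response element. *Fos* is at chr12:85473640-85473889 on the + strand and *Fosb* at chr7:19310046-19310295 on the - strand.
Fos: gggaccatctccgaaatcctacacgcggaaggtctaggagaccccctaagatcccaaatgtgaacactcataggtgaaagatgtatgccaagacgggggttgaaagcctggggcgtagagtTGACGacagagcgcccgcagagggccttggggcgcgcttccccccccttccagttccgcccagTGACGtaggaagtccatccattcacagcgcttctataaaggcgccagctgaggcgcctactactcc
Fosb: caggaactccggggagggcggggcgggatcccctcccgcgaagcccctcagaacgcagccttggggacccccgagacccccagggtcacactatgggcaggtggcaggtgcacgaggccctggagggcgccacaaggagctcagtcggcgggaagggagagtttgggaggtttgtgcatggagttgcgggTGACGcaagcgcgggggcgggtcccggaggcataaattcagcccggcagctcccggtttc

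Promoter windows of 300 bases, running from 250 before to 50 after the RefSeq gene start, were available here for 7 of the 10 genes, all but *Fosl1*, *Egr1* and *Ier2*. The motif TGACG was searched on both strands and is contained within the full cAMP response element TGACGTCA. It lay 129 and 66 bases before the start of *Fos*, 60 bases before that of *Fosb* and 106 bases before that of *Junb*. These 3 of 7 windows compare with 20.8% of all 32851 promoters of the table. The full TGACGTCA was in 0 of the 7 and in 1.79% of all promoters. The AP-1 site TGANTCA was in 0 of 7 and in 7.81% of all, and the CArG box bound by SRF was in 0 of 7 and in 1.63% of all. A match, or the absence of one, describes only the letters of this window. Sequence further upstream was not searched, so 0 matches do not show that a gene lacks the site.

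*Fosb* encodes a Fos protein with an activation domain that its shorter ΔFosB splice form lacks, and it varied more between libraries than the other 9 genes. It lies at chr7:19302696-19310051 on the - strand (GRCm38), and no annotated gene overlaps its exons. Its counts were 1250, 42, 77 and 590, or 1278, 38.1, 76.0 and 637 normalised counts. The untreated day 2 and butyrate day 3 libraries were high, and the remaining pair were low. Relative to the untreated library of the same day, *Fosb* with butyrate was 32.7-fold lower on day 2, a log2 fold change of -5.03 (-5.55 to -4.62), and 8.29-fold higher on day 3, a log2 fold change of 3.05 (2.72 to 3.43). From day 2 to day 3 it was 16.6-fold lower in untreated colonoids and 16.3-fold higher with butyrate. Of 11650 genes with a mean of at least 50 normalised counts, 17 (0.146%) had a range over the 4 libraries as wide as its 32.7-fold.

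*Fos*, the prototype of the family, followed the same order of conditions on each day with smaller differences. It lies at chr12:85473890-85477273 on the + strand. Normalised counts were 3380, 1270, 946 and 1631. The untreated day 2 library stood above the other 3, whose highest value was 1631. With butyrate *Fos* was 2.66-fold lower on day 2, a log2 fold change of -1.41 (-1.50 to -1.32), and 1.72-fold higher on day 3, a log2 fold change of 0.79 (0.67 to 0.90). Over time it was 3.57-fold lower on day 3 in untreated colonoids and 1.28-fold higher with butyrate, so the largest of its differences was between the untreated libraries. Of the genes with a mean of at least 50, 2.73% had a range as wide.

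**Figure D1:**
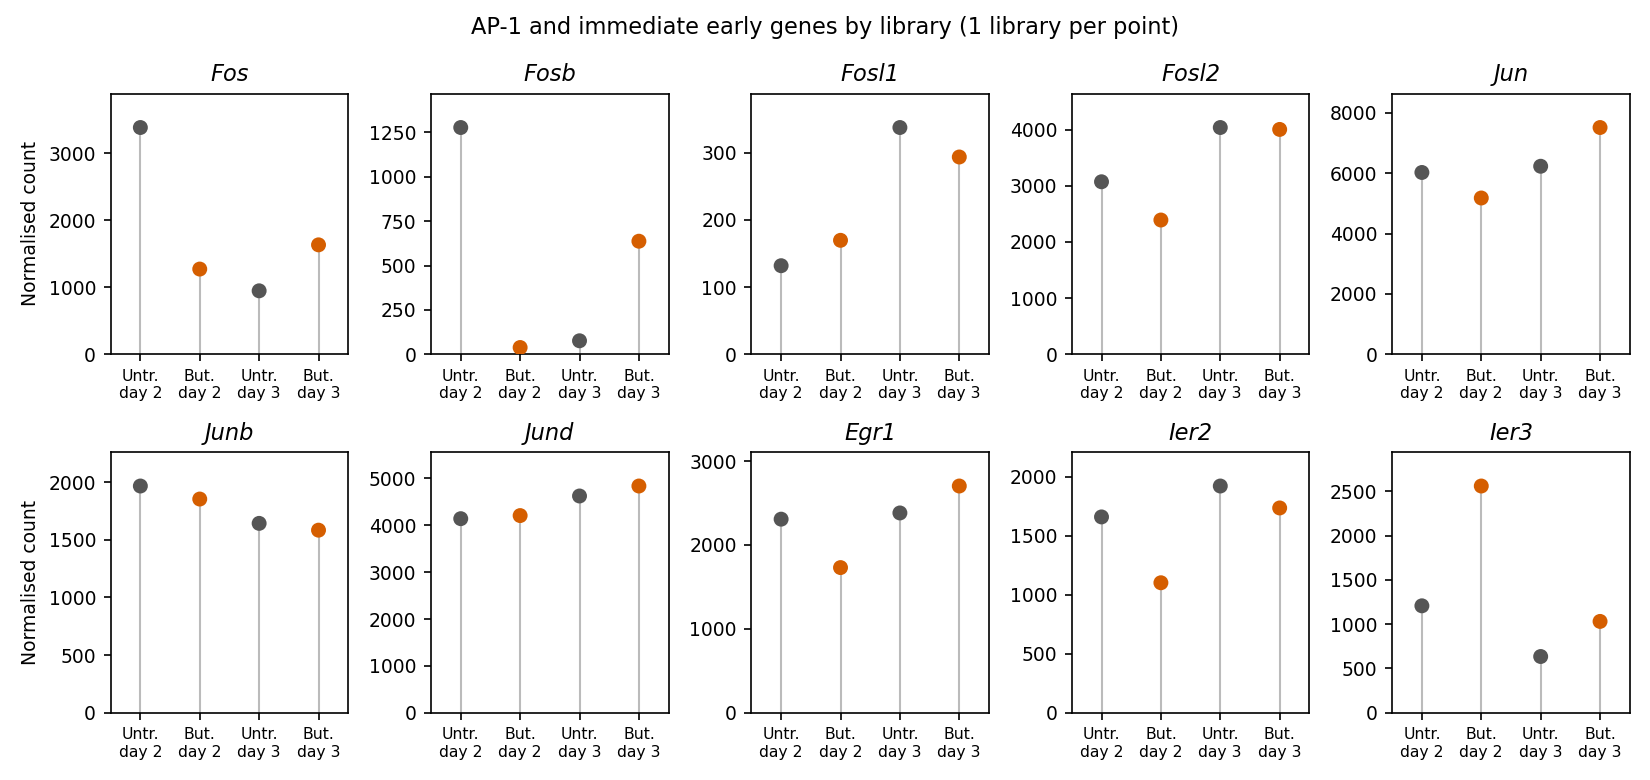
Normalised count (y axis, linear, from 0, own scale in each panel) of each of the 10 genes in the 4 libraries (x axis; grey, untreated; orange, butyrate; 1 library per point, no error bars). *Fos* and *Fosb* are highest in the untreated library of day 2, at 3380 and 1278 normalised counts, whereas *Jund* lies between 4142 and 4839.

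*Fosl1* (Fra-1) and *Fosl2* (Fra-2), Fos proteins without the activation domain of *Fos*, differed mainly by day. *Fosl1*, at chr19:5447547-5455946 on the + strand, had 132, 170, 338 and 294 normalised counts. Both libraries of day 3 were above both of day 2, by 2.55-fold in untreated colonoids and 1.73-fold with butyrate. With butyrate the log2 fold change of *Fosl1* was 0.36 (0.03 to 0.70) on day 2 and -0.20 (-0.44 to 0.03) on day 3, the smallest counts of the 10 genes on average giving wide intervals. The exons of *Fosl1* overlap those of *Ccdc85b* on the opposite strand, which had 233, 284, 220 and 155 counts, and whether the counting used strand is not given in the sources used here. *Fosl2*, at chr5:32135801-32157842 on the + strand, had 3071, 2390, 4037 and 4003 normalised counts. It was 1.28-fold lower with butyrate on day 2, a log2 fold change of -0.36 (-0.44 to -0.29), while on day 3 the log2 fold change was -0.01 (-0.08 to 0.05). Like *Fosl1*, it was higher on day 3 in both conditions, by 1.31-fold without and 1.68-fold with butyrate.

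The Jun family moved less. *Jun*, the main partner of *Fos*, lies at chr4:95049034-95052222 on the - strand and had 6025, 5179, 6231 and 7515 normalised counts. The untreated libraries of the 2 days were close to each other, and those with butyrate lay below them on day 2 and above them on day 3. Its log2 fold change with butyrate was -0.22 (-0.27 to -0.17) on day 2 and 0.27 (0.22 to 0.32) on day 3. *Junb*, a subunit with weaker transactivation than *Jun*, lies at chr8:84974484-84978718 on the - strand and had 1967, 1854, 1643 and 1584 normalised counts. Its log2 fold change with butyrate was -0.09 (-0.18 to 0.00) on day 2 and -0.05 (-0.15 to 0.05) on day 3, and both libraries of day 3 were lower than those of day 2, by 1.20-fold without and 1.17-fold with butyrate. Exons of *Junb* overlap the more abundant *Prdx2* (2813 to 3390 counts) on the opposite strand. *Jund*, the Jun protein expressed most steadily in resting cells, lies at chr8:70698949-70700616 on the + strand and had 4142, 4208, 4626 and 4839 normalised counts. Its log2 fold change with butyrate was 0.02 (-0.04 to 0.08) on day 2 and 0.06 (0.01 to 0.12) on day 3. The range of *Jund* over the libraries was 1.17-fold, and 83.7% of genes with a mean of at least 50 had a range as wide. For *Junb* the range was 1.24-fold, matched or passed by 69.04% of those genes. *Jun* and *Jund* are each overlapped by an annotated antisense gene that the table does not list by symbol.

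*Egr1*, *Ier2* and *Ier3*, which are not AP-1 subunits, differed from each other in direction. *Egr1*, a zinc finger factor induced by MAP kinases through SRF and Elk, lies on chromosome 18 and had 2307, 1730, 2381 and 2702 normalised counts. The butyrate library was the lowest of the 4 on day 2 and the highest on day 3, as for *Jun*. The log2 fold change of *Egr1* was -0.41 (-0.50 to -0.33) on day 2 and 0.18 (0.10 to 0.26) on day 3. *Ier2*, a nuclear protein of the early growth response, lies at chr8:84661331-84662852 on the - strand and had 1660, 1102, 1922 and 1736 normalised counts. It was lower with butyrate on both days, with a log2 fold change of -0.59 (-0.70 to -0.48) on day 2 and of -0.15 (-0.24 to -0.05) on day 3. *Ier3* (IEX-1), a regulator of survival under stress that is also a target of NF-κB, lies at chr17:35821684-35822923 on the + strand. It had 1207, 2559, 635 and 1031 normalised counts. With butyrate *Ier3* was 2.12-fold higher on day 2, a log2 fold change of 1.08 (0.99 to 1.18), and 1.62-fold higher on day 3, a log2 fold change of 0.70 (0.55 to 0.85). In both conditions it was lower on day 3, by 1.90-fold without butyrate and 2.48-fold with it, and 2.00% of genes with a mean of at least 50 had a range as wide as its 4.03-fold.

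**Figure D2:**
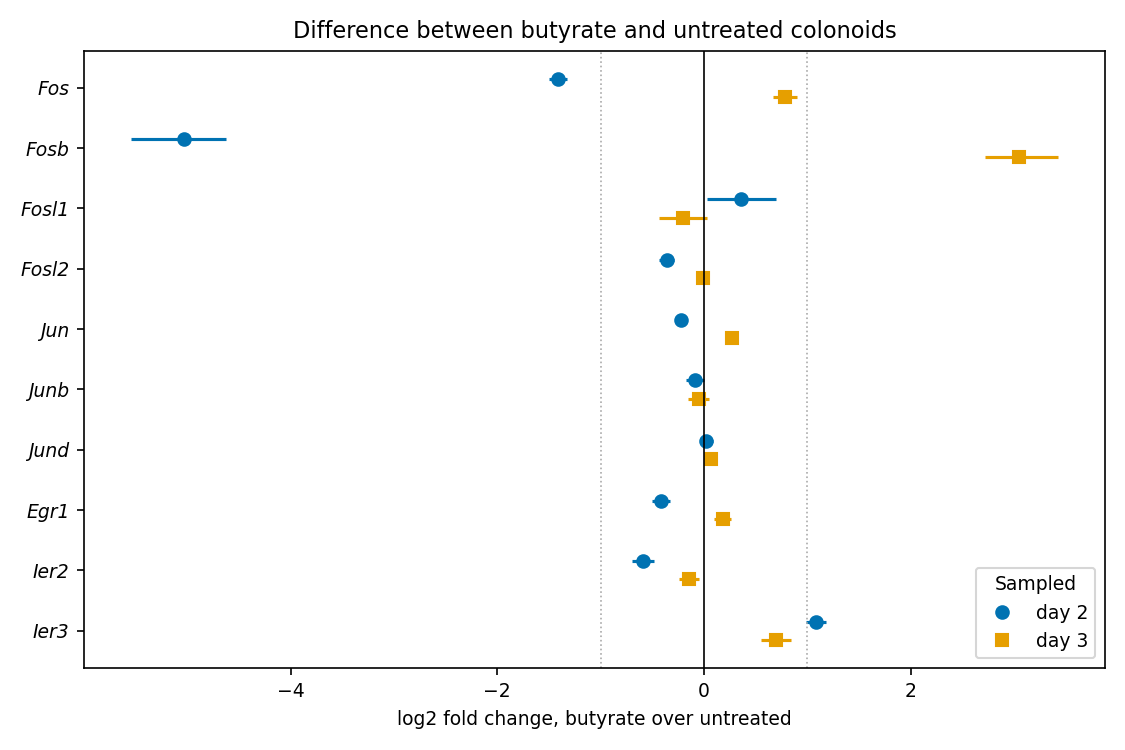
Log2 fold change of butyrate over untreated colonoids (x axis) for each of the 10 genes (y axis) on day 2 (blue circles) and day 3 (orange squares), with bars for the 95% counting interval and dotted lines at 2-fold. *Fosb* lies at -5.03 and 3.05 and *Fos* at -1.41 and 0.79, *Ier3* is right of 0 on both days, and *Junb* and *Jund* lie close to 0.

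In the comparison of butyrate with untreated colonoids on day 2, 1 of the 10 genes was at least 2-fold higher (*Ier3*) and 2 were at least 2-fold lower (*Fos* and *Fosb*). Among all 13979 genes, 6.94% were at least 2-fold higher and 3.08% at least 2-fold lower. In all, 3 of the 10 were higher and 7 lower, with a median log2 fold change of -0.29 against -0.01 over all tested genes, and the intervals of 8 of the 10 excluded 0, as did those of 60.7% of all tested genes. On day 3, 1 gene was at least 2-fold higher (*Fosb*) and 0 were at least 2-fold lower, against 4.53% and 3.78% of all genes. Here 6 were higher and 4 lower, with a median of 0.12 against 0.00 over all genes, and 7 of the 10 intervals excluded 0, against 52.3% of all genes, many of which had lower counts and wider intervals. Both sets of counts rest on few genes, and the comparisons of the 2 days used separate libraries throughout.

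Between days, the untreated libraries had 1 of the 10 genes at least 2-fold higher on day 3 (*Fosl1*) and 2 at least 2-fold lower (*Fos* and *Fosb*). The corresponding shares of all genes were 2.66% and 1.82%. With scaling by total count *Ier3* passed 2-fold as well, at -1.0033 in place of -0.93, which made 3 lower. With butyrate, 1 was at least 2-fold higher on day 3 (*Fosb*) and 1 at least 2-fold lower (*Ier3*), against 3.67% and 4.95% of all genes. The median of the 10 between days was 0.05 in untreated colonoids and 0.59 with butyrate, where 8 of the 10 were higher on day 3, while the medians over all genes were 0.00 and -0.01. These comparisons over time share their libraries with the comparisons of butyrate.

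By direction, 4 of the 10 were lower with butyrate on day 2 and higher on day 3 (*Fos*, *Fosb*, *Jun* and *Egr1*), and in each of these both intervals excluded 0. Of all tested genes, 19.9% had that order of signs and 5.33% had it with both intervals excluding 0. A further 3 were lower on both days (*Fosl2*, *Junb* and *Ier2*; 31.3% of all genes), although the day 3 value of *Fosl2*, -0.01, became 0.04 with scaling by total count and 0.0035 when mitochondrial genes were left out of that total, 2 were higher on both (*Jund* and *Ier3*; 30.4%) and 1 was higher and then lower (*Fosl1*; 18.4%). The day 3 minus day 2 difference of the log2 fold changes was 8.08 (7.52 to 8.64) for *Fosb*, 2.20 (2.05 to 2.34) for *Fos*, 0.60 (0.48 to 0.72) for *Egr1* and 0.49 (0.42 to 0.56) for *Jun*. It was also above 0 for *Ier2*, at 0.44 (0.30 to 0.59), and for *Fosl2*, at 0.35 (0.25 to 0.45). It was below 0 for *Fosl1*, at -0.56 (-0.96 to -0.16), and for *Ier3*, at -0.39 (-0.56 to -0.21). For *Junb* and *Jund* the intervals of that difference included 0. At least 2-fold lower on day 2 and at least 2-fold higher on day 3 was a pattern of 20 of the 13979 genes, or 0.143%, *Fosb* included. Of these, 4 had a mean of at least 50 normalised counts, with *Fosb* highest at 507 and the next at 98.5.

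Levels of different genes were compared as normalised counts per kb of merged exon length. *Jund* was the most abundant of the 10 in every library, at 2483, 2523, 2773 and 2901 per kb. *Jun* came next at 1889, 1624, 1954 and 2357 per kb, except with butyrate on day 2, where *Ier3* reached 2263 per kb. *Fos* stood directly below *Jun* in untreated colonoids on day 2 at 1437 per kb, and on day 3 without butyrate, at 402 per kb, it was below *Fosl2* at 417. *Fosb* ranged from 6.10 to 205 per kb, and *Fosl1* from 64.9 to 166 per kb. *Fosb* was the least abundant with butyrate on day 2 and in untreated colonoids on day 3, and *Fosl1* in untreated colonoids on day 2. With butyrate on day 3 the order of the pair depended on the length used: *Fosb* gave 1.40% and *Fosl1* 1.98% of the AP-1 subunit counts per kb with merged exons, and 2.15% and 2.01% with the longest transcript.

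The make-up of the AP-1 subunit mRNA pool differed most in the untreated library of day 2. There the Fos family gave 27.9% of the counts per kb of the 7 subunits, against 15.0% with butyrate on day 2, 15.5% in untreated colonoids on day 3 and 18.5% with butyrate on day 3. *Fos* alone gave 19.8%, 9.27%, 6.25% and 9.50%, and *Fosb* 2.82%, 0.105%, 0.189% and 1.40%. The summed level of the Fos family was 2024, 876, 998 and 1353 per kb, while that of the Jun family stayed between 4952 and 5946 per kb. *Jund* gave 34.2% to 43.3% of the pool and *Jun* 26.1% to 32.3%. Which of the pair led depended on the length scaling: in counts without it, *Jun* gave 30.1% to 36.7% and *Jund* 20.7% to 27.9%. The shares of the Fos family without length scaling were 39.3%, 25.6%, 30.2% and 32.0%, again highest in the untreated library of day 2. The ratio of the highest share to the lowest was smaller than with length scaling. Transcript levels say nothing of which dimers formed.

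**Figure D3:**
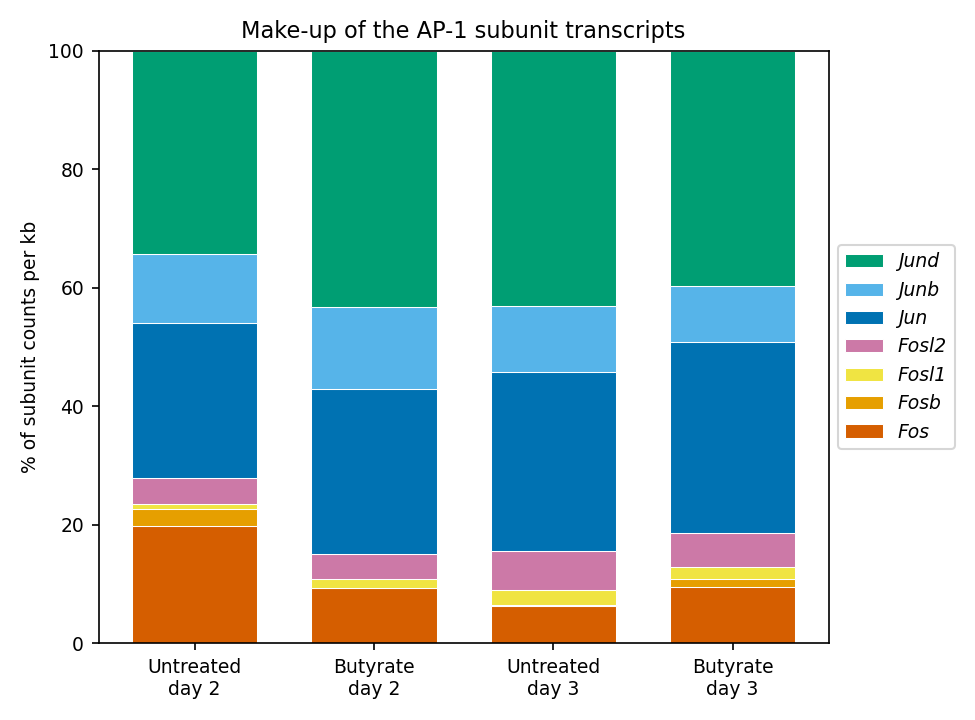
Percent of the summed normalised counts per kb of the 7 AP-1 subunit genes (y axis, from 0 to 100) given by each gene in each library (x axis; 1 library per bar, no error bars; colours name the genes). The Fos family (lower 4 colours) makes up 27.9% in the untreated library of day 2 and 15.0% to 18.5% in the other 3.

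Other genes of the pathway were described from lists of further bZIP genes, immediate early genes, MAP kinase and SRF pathway genes, feedback inhibitors, AP-1 targets and heat shock genes. Of 19 tested bZIP genes that can partner AP-1 subunits or compete with them, 3 were higher and 16 lower with butyrate on day 2, and 5 higher and 14 lower on day 3. Their median log2 fold changes were -0.19 and -0.17, against -0.01 and 0.00 over all genes, and 2 on day 2 and 1 on day 3 were at least 2-fold lower (3.08% and 3.78% of all genes). *Atf3*, a stress-induced repressor, had 227, 179, 558 and 400 counts, with log2 fold changes of -0.51 and -0.35 on days 2 and 3. *Maff*, a small Maf protein, was lower by a like amount at -0.46 and -0.35. *Jdp2*, a repressor that pairs with Jun proteins, had 36, 41, 63 and 96 counts and log2 fold changes of 0.01 and 0.73, and *Atf1*, a CREB relative, had 0.04 and 0.15.

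Of 40 other immediate early genes tested, 14 were higher and 26 lower with butyrate on day 2, and 18 higher and 22 lower on day 3, with medians of -0.10 and -0.07. On day 2, 1 was at least 2-fold higher and 4 at least 2-fold lower (6.94% and 3.08% of all genes), and on day 3 there were 0 in either direction (4.53% and 3.78% of all genes). *Myc*, a driver of growth and proliferation, had 2646, 7657, 1482 and 1890 counts and log2 fold changes of 1.36 and 0.48. It was higher with butyrate on both days and lower on day 3 than on day 2 in both conditions, the same order as *Ier3*. *Plk2*, a stress-responsive kinase, had log2 fold changes of -1.0 and -0.51, and *Nfkbiz*, a nuclear regulator of NF-κB, -0.46 and -0.44. *Ier5l*, a relative of the Ier genes, was higher at 0.67 and 0.98. Lower on day 2 and higher on day 3, as in *Fos* and *Fosb*, were 7 of the 40 genes, or 17.5%, near the 19.9% of all tested genes.

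The MAP kinase and SRF pathway itself, which carries growth factor signals to these genes, had 32 genes tested. On each day 0 of the 32 were at least 2-fold higher or lower, against 6.94% and 3.08% of all genes on day 2 and 4.53% and 3.78% on day 3. On day 2, 12 were higher and 20 lower with a median of -0.17, and on day 3, 14 were higher and 18 lower with a median of -0.01. *Hras* was lower on both days at -0.50 and -0.43, as was *Araf*, a Raf kinase, at -0.31 and -0.23. *Braf*, another Raf kinase, was higher at 0.23 and 0.28. Among 21 feedback inhibitors, most of which are induced by the same signals, 6 were higher and 15 lower on day 2 and 7 higher and 14 lower on day 3, with medians of -0.23 and -0.14, while 48.7% and 50.3% of all genes were higher. At least 2-fold higher were 1 on day 2 and 1 on day 3, and at least 2-fold lower 0 and 1, against 6.94% and 4.53% of all genes higher and 3.08% and 3.78% lower. *Dusp8*, a MAP kinase phosphatase, had -0.60 and -0.54, and *Spry2*, an inhibitor of receptor tyrosine kinase signalling, -0.48 and -0.48. *Nab2*, a corepressor that binds Egr proteins and is induced by them, was higher at 0.86 and 0.69, with 139, 286, 95 and 141 counts. *Spred3*, a Ras pathway inhibitor, was higher at 1.54 and 1.17.

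Of 25 genes described as AP-1 targets in various tissues, 14 were higher and 11 lower with butyrate on each day, with medians of 0.04 and 0.02. *Ccnd1* (cyclin D1), which drives entry into S phase, had 4552, 9208, 4220 and 8213 counts and log2 fold changes of 0.84 and 1.09. *Ereg*, a ligand of the EGF receptor, had 456, 1353, 646 and 940 counts, at 1.39 and 0.67. *Itga2*, a collagen-binding integrin, was lower at -0.59 and -0.61, as was *Anxa3*, an annexin, at -0.66 and -0.43. The signs of *Fos* and *Fosb*, lower on day 2 and higher on day 3, were shared by 4 of the 25 genes (16.0%, against 19.9% of all tested genes).

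Since cell dissociation can itself induce immediate early genes, 17 heat shock and ubiquitin genes that respond to it were placed beside them. Of these, 10 were higher and 7 lower with butyrate on day 2, and 8 higher and 9 lower on day 3, with medians of 0.08 and -0.00. *Hsp90aa1*, an inducible chaperone, had log2 fold changes of 0.28 and 0.25, *Dnaja1* -0.40 and -0.24, and *Bag3* -0.16 and -0.19. *Hspb1* had 6, 163, 10 and 42 counts, at 4.38 (3.44 to 6.06) and 2.09 (1.18 to 3.36), and unlike *Fosb* it was higher with butyrate on both days. Lower on day 2 and higher on day 3 was seen in 1 of the 17 genes, or 5.88%, against 19.9% of all tested genes. The part of handling at harvest in the *Fos* and *Fosb* values was not tested.

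**Figure D4:**
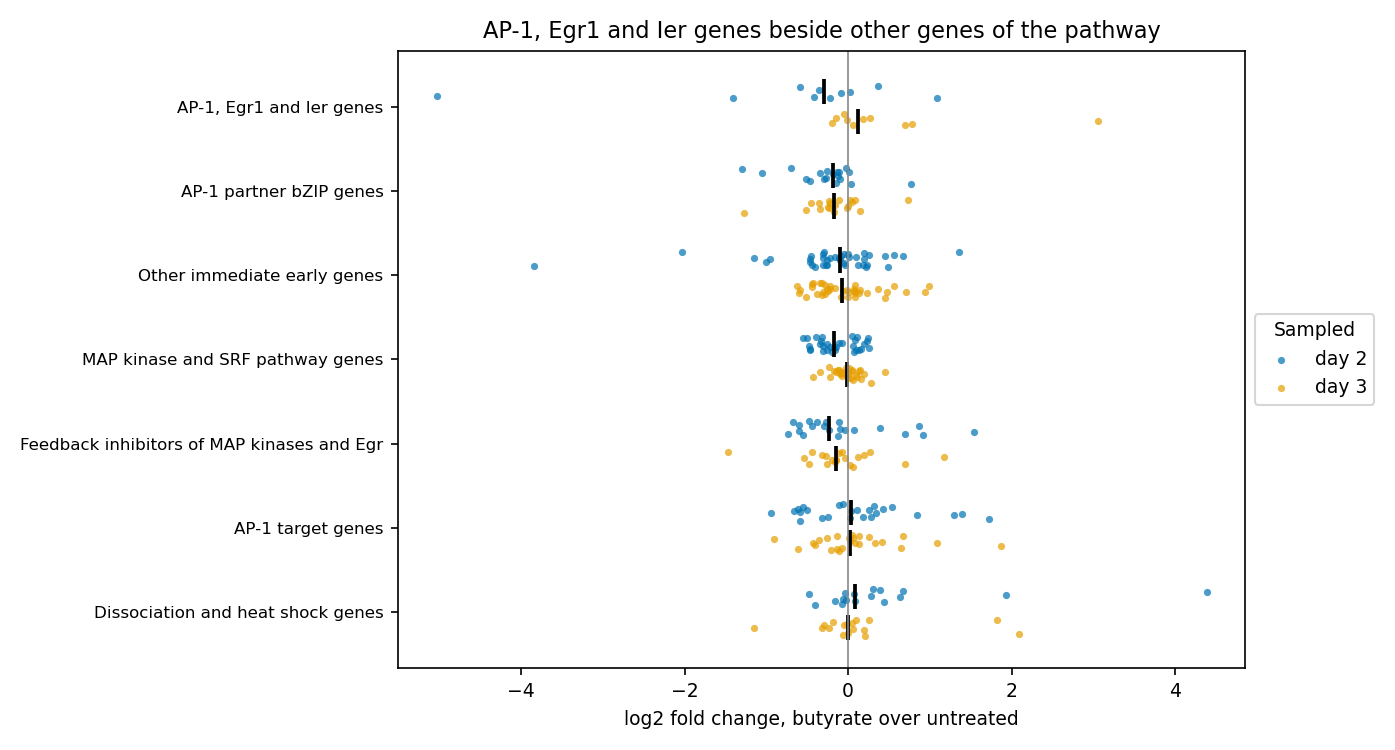
Log2 fold change of butyrate over untreated colonoids (x axis) of each tested gene on day 2 (blue) and day 3 (orange) for the 10 AP-1, Egr1 and Ier genes and for 6 lists (y axis; points are spread vertically at random; black bars are medians). The medians of the 10 genes lie at -0.29 and 0.12, and those of the lists between -0.23 and 0.08.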

How the data were processed

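Bulk poly-A RNA-seq of mouse colonoids was carried out on 4 libraries, with 1 library per condition. The authors deposited estimated counts per gene, made by kallisto pseudoalignment (version 0.44.0 and GRCm38.p6 in the submitters' processing notes) and summed with tximport, as whole numbers with no normalisation. Reads shared by similar transcripts are therefore split by estimate. Whether strand was used is not given in the sources used here.

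Following the methods of the study, a gene was tested if it was above 10 counts in 2 or more of the libraries. Counts were divided by DESeq2 1.42.0 size factors (0.926 to 1.10; R 4.3.3). Log2 fold changes were taken with a pseudocount of 1, which understates those of low genes. No model was fitted, since each condition had 1 library. The exact Clopper-Pearson intervals at the 95% level cover counting error only, and that of a difference between days used a normal approximation. They may be too narrow even for counting error. The counts are estimates, the reads carry no molecular identifiers, and several reads may come from 1 molecule. Further steps used Python 3.11.15 with scipy 1.17.1, numpy 2.4.6, matplotlib 3.10.9 and pandas 2.3.3. Positions and exon lengths came from the GENCODE annotation of GRCm38, and promoters from RefSeq.

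The genes and lists were chosen with earlier results of these data known. From each list, the text names up to 2 genes higher and 2 lower on both days, by the smaller of the 2 changes, among genes with a mean of at least 50 normalised counts; other genes are said to be outside this rule. 1 gene that the rule selects is not reported here. *Epcam* and some of the other cell type markers are given with their counts to check identity. Simulated counts were drawn with counting error alone, for genes with a mean of at least 50 and changes of at least 2-fold. There, 200 of 200 changed genes were recovered on each day, and 95.4% of intervals on day 2 and 95.6% on day 3 held the true change. The intervals assume that same error, so the simulation checks the calculation only and says nothing of the spread between cultures. Alternatives were edgeR 4.0.16 TMM factors, total counts with and without mitochondrial genes, a pseudocount of 5, other filters, 1.5-fold as the threshold and other length scalings.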

Additional observations from a re-analysis of the deposited data

Results flagged for a closer look

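In 4 of the 10 genes butyrate colonoids were lower than untreated on day 2 and higher on day 3, with both counting intervals excluding 0. The same pattern was found in 5.33% of all tested genes. For *Fosb* the log2 fold change was -5.03 on day 2 and 3.05 on day 3, and for *Fos* it was -1.41 and 0.79. For *Jun* it was -0.22 and 0.27, and for *Egr1* -0.41 and 0.18. *Fosl1* also had opposite signs, at 0.36 and -0.20, but its interval on day 3 included 0. The difference between days was not tested, since each condition had 1 library, and the counting intervals do not cover the spread between cultures.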

How the results depend on the processing

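No paired analysis was possible because the conditions had no replicate libraries to pair, and a fit of treatment with day as a block, which would take the days as replicates, was not run. For the log2 fold changes of the 10 genes, 240 values were recomputed over 4 comparisons and 6 alternatives. Of these, 236 lay within the counting interval of the value reported, 4 moved outside it and 0 of the called values changed sign. All 4 came from scaling by total count, which shifted the median over all genes by -0.08 between the untreated libraries and by 0.05 between butyrate and untreated colonoids on day 3. *Jun* moved to 0.32 with butyrate on day 3 and to -0.03 between the untreated libraries, where *Fosl2* moved to 0.32, *Jund* to 0.08 and the median of the 10 genes from 0.05 to -0.03. The background shares moved more than the genes did. Among genes with a mean of at least 50 normalised counts, 4.07% were at least 2-fold higher and 1.51% lower with butyrate on day 2, and 2.34% and 1.60% on day 3. With all genes of at least 1 count in any library they were 10.9% and 9.43% on day 2, and 10.6% and 8.26% on day 3. Between days the shares with a mean of at least 50 were 0.781% and 0.815% in untreated colonoids and 1.65% and 2.52% with butyrate, and with at least 1 count 6.67% and 8.52%, and 9.90% and 10.2%. With 1.5-fold as the threshold, 1 of the 10 genes was higher and 3 lower with butyrate on day 2 (13.1% and 8.90% of all genes), and 3 higher and 0 lower on day 3 (9.50% and 8.53%). Between days, 1 was then higher and 3 lower in untreated colonoids (6.82% and 5.17%), and 5 higher and 1 lower with butyrate (9.66% and 11.9%). Using the longest transcript as the length, *Fosb* gave 4.25% of the AP-1 subunit counts per kb in untreated colonoids on day 2 and 0.161% with butyrate. Depth limits *Fosl1* and, where it had 42 and 77 counts, *Fosb*, whose counting intervals were the widest of the 10 genes.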

Other observations

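The genes in these paragraphs belong to the lists placed beside the AP-1 genes, fall outside the rule for named genes and were chosen after their values were seen. *Ccn1* (Cyr61), a matricellular protein induced through SRF and YAP, had 369, 101, 359 and 633 counts in untreated day 2, butyrate day 2, untreated day 3 and butyrate day 3. Its log2 fold change with butyrate was -2.03 (-2.37 to -1.72) on day 2 and 0.95 (0.76 to 1.14) on day 3, the same order of signs as *Fos* and *Fosb*. *Ccn2* (Ctgf), its relative, had 192, 201, 292 and 437 counts, with log2 fold changes of -0.11 (-0.40 to 0.19) and 0.71 (0.49 to 0.93).

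*Areg*, a ligand of the EGF receptor, had 1630, 4508, 2417 and 2415 counts, with log2 fold changes of 1.29 (1.21 to 1.38) on day 2 and 0.13 (0.05 to 0.21) on day 3. *Hbegf*, another ligand, had 552, 414, 730 and 709 counts, at -0.59 (-0.77 to -0.40) and 0.09 (-0.06 to 0.24). The ligands thus differed in direction on day 2. *Zfp36*, an early gene whose product destabilises mRNAs, had 1971, 1150, 1832 and 1355 counts, at -0.95 (-1.06 to -0.84) and -0.31 (-0.41 to -0.20). The heat shock genes *Hspa1a* and *Hspa1b*, near-identical copies whose reads the counting could split, had log2 fold changes of 0.67 and 0.63 on day 2 and -1.15 and -0.32 on day 3, opposite in sign to *Fos* and *Fosb*. All values compare single libraries.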
